A study of Ovis aries with 95 samples.

Results

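Prolactin (PRL), neuropeptide VF precursor (NPVF) and gastrin releasing peptide (GRP) were followed through the second part of gestation in 4 regions of the sheep brain. They are 3 of the 967 genes with a symbol on the array, and were read by 6 of its 15008 different gene probes, 2 for each gene. The probes were found by gene name, and the genes were chosen by their log2 signals over regions and ages on these same arrays, so their own levels are described without a test. For the same reason no meaning is read from the share of other genes that is set beside a member. Values are log2 signals, and a gene's value on an array is the mean of its 2 probes. The spread is the SD over arrays of one group.

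The series held 95 arrays of frontal cortex, brainstem, hippocampus and hypothalamus from untreated sheep (Ovis aries) of 6 ages. The ages were 80, 100, 120, 130 and 145 d of gestation, where the 100 d and 145 d groups each pooled a few neighbouring days, and 1 d after birth, called newborn below. Each region had 4 arrays per age, 1 animal each, except for the hippocampus at 100 d, which had 3. The methods describe taking all 4 regions from each brain, so arrays of different regions share animals, but the labels do not say that a replicate number marks the same animal in each region. Each age included a pair of twins that the labels do not mark, so the spread between arrays may be smaller than that between unrelated animals.

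Prolactin is the hormone of the pituitary lactotroph cells, held in check by dopamine from the hypothalamus, and it acts on the mammary gland and on brain circuits of maternal care, stress and salt balance. NPVF is the precursor of the RFamide peptides known as gonadotropin-inhibitory hormone, which are made by neurons of the dorsomedial hypothalamus and act on gonadotropin release. GRP is a mammalian relative of bombesin, a peptide of cortical, hippocampal, hypothalamic and brainstem neurons linked to fear, itch, breathing and feeding. All are cut from larger precursors and secreted, so the RNA in a dissected block marks where the peptide is made and not where it acts.

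The probes set how finely each gene could be read, and their overlapping ends are shown for that reason. The PRL probes shared 20 bases, written here in capitals, the end of the probe printed in 1 spot and the start of the probe printed in 5 spots.
PRL, last bases of the 1-spot probe: tccctggcaaACTTCTCTGAGCTTTATAGC
PRL, first bases of the 5-spot probe: ACTTCTCTGAGCTTTATAGCtttttaatgc
The 5-spot probe also held a run of 18 bases, in capitals, found in a probe of the prolactin-related gene PRP1, a placental relative of prolactin.
PRL, 5-spot probe around that run: ctttatAGCTTTTTAATGCATGCTtggctc
PRP1, probe around that run: atttacAGCTTTTTAATGCATGCTctgtga
The 1-spot PRL probe shared no run over 6 bases with that PRP1 probe. In the brainstem, where PRL was brightest, the PRP1 probe with the shared run reached only 6.9 and stood well above background on 2 of 24 arrays.

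The NPVF probes were nearly the same sequence, moved by 1 base, and the 59 bases they shared are in capitals. They count as 1 measurement, not as separate ones.
NPVF, probe from base 386: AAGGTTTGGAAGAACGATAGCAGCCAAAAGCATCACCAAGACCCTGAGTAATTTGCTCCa
NPVF, probe from base 385: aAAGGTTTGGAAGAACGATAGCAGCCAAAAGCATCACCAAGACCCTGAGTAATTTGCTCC
The GRP probes shared 40 bases, of which the first 30 are shown.
GRP, start of the shared stretch: CTATTAGATTCCAGTCCCCAACCTGTTACC

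Over all 95 arrays the paired probes tracked each other, with Pearson's r of 0.96 for PRL, 0.987 for NPVF and 0.966 for GRP. These are descriptions, as overlapping probes share target and array. The agreement of the PRL probes was 0.997 in the brainstem but 0.354 in the hippocampus, where PRL was dim. The probes lay over 1 log2 unit apart on 2 arrays for PRL, on none for NPVF and on 1 for GRP, the brainstem of newborn replicate 4, where they read 7.07 and 8.21.

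**Figure D1:**
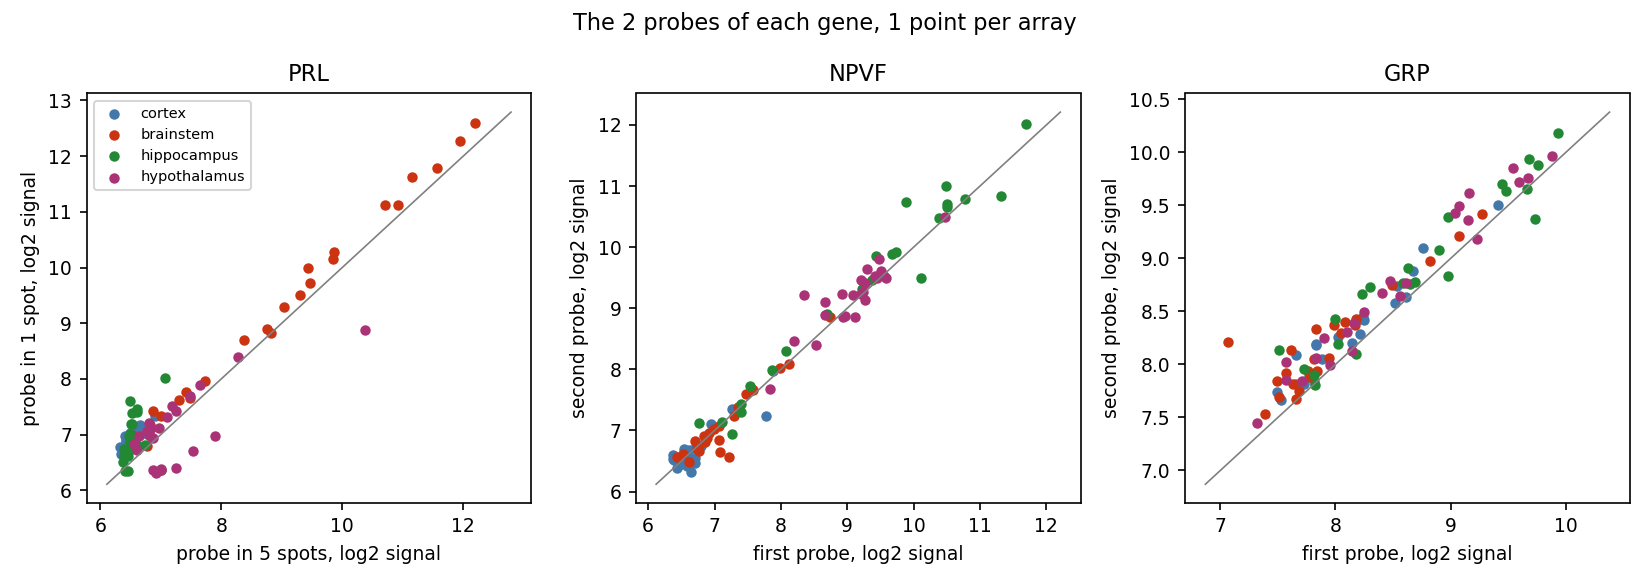
Log2 signal of one probe of each gene against that of the other, 1 point per array, coloured by region, with the line of equal values. NPVF and GRP points follow the line over their range, while PRL points do so in brainstem, scatter at the dim end elsewhere and leave it at 1 hypothalamic array (10.37 and 8.87).

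Across regions the median share of probes that the scanner software marked well above background was 76.2 to 81.4%, single arrays ran from 59.5 to 88.5%, and the log2 signal of the dimmest such probes had a median of 6.46 to 6.5. PRL was well above background by at least 1 probe on 24 of 24 arrays in brainstem and in hypothalamus, on 20 of 24 in cortex and on 17 of 23 in hippocampus. By both probes together the counts were 23 in brainstem, 16 in hypothalamus and 2 each in cortex and hippocampus. NPVF was well above background on all hippocampal and hypothalamic arrays, on 21 of 24 in brainstem and on 7 of 24 in cortex, and GRP was well above background on every array. No member spot was saturated. Each slide held a single region, so region and slide cannot be told apart except by treating slide as a random block. In bulk tissue, fewer cells of a type and less RNA per cell cannot be told apart either.

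**Figure D2:**
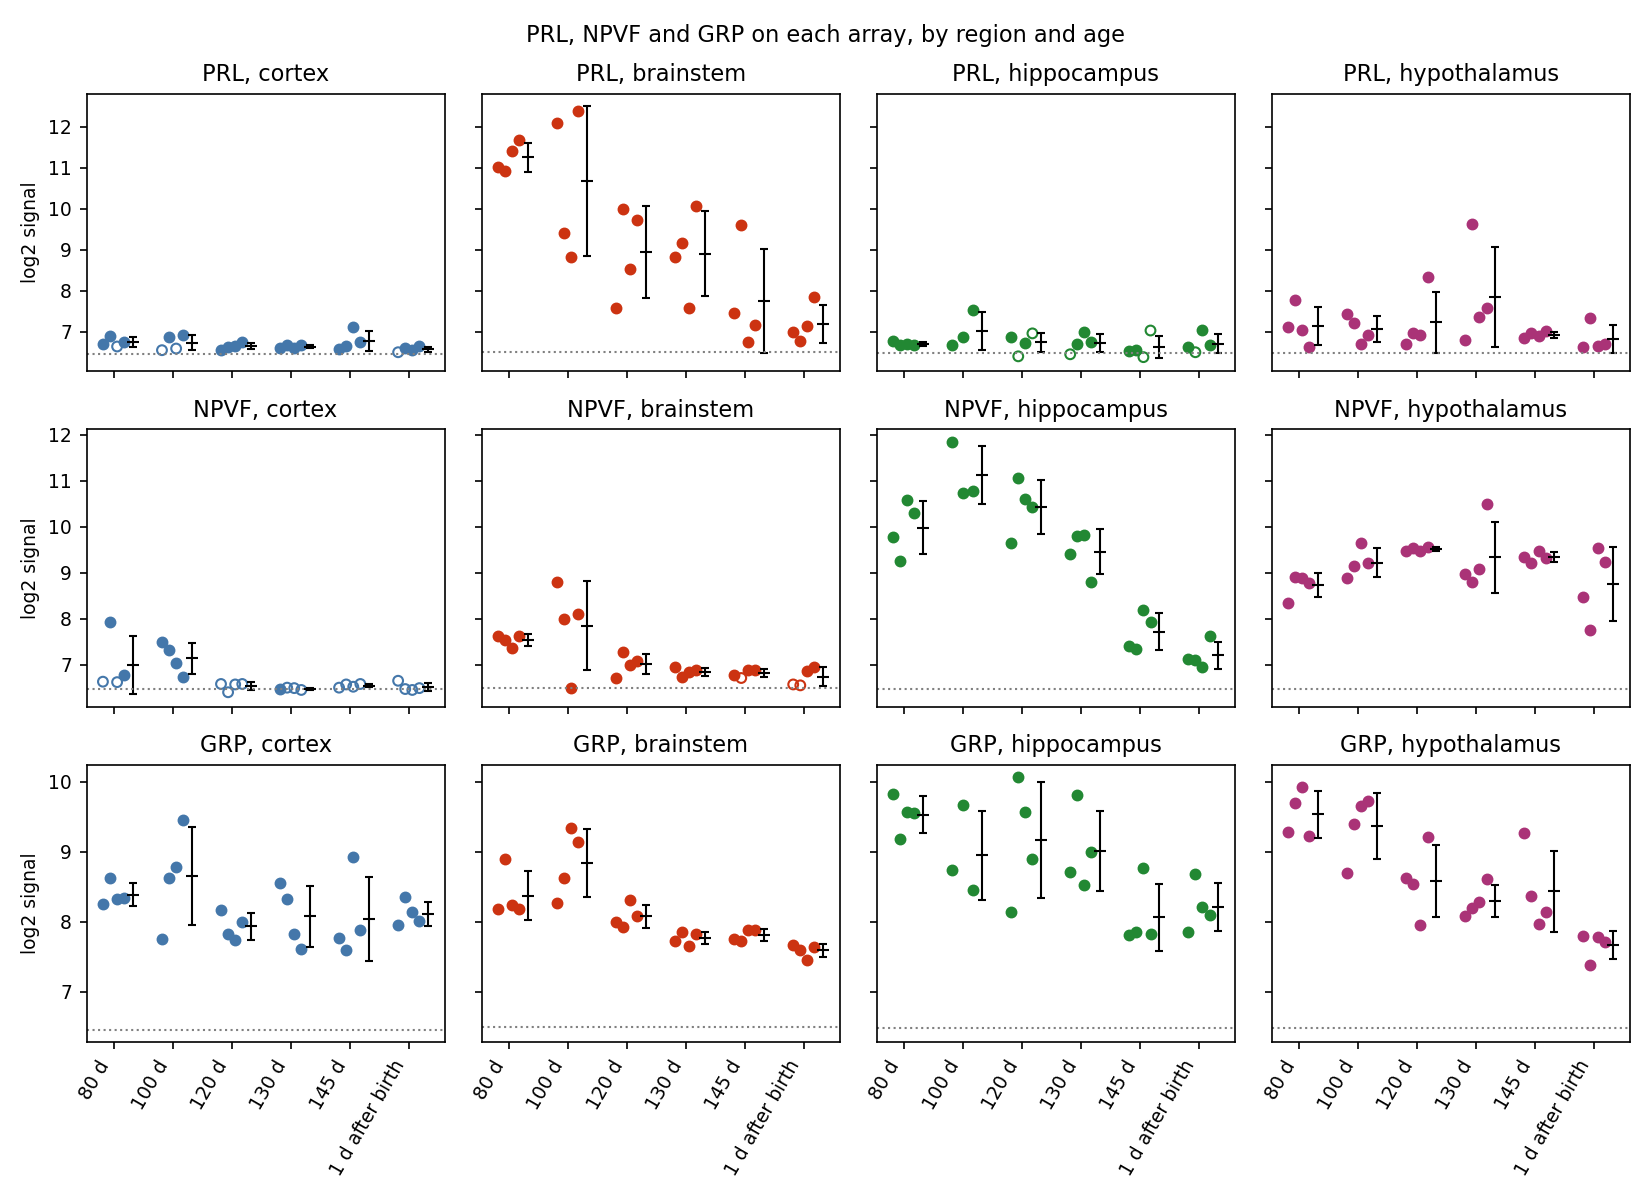
Log2 signal of PRL, NPVF and GRP by age and region, 1 point per array, open where no probe of the gene was well above background, with the group mean and SD as bars and the region's median floor as a dotted line. PRL stands apart in the early brainstem, NPVF in the hippocampus to 130 d and in the hypothalamus at all ages, and GRP in early hypothalamus and hippocampus.

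PRL was a brainstem signal in the younger fetuses. At 80 d the 4 brainstem arrays read 11.02, 10.92, 11.4 and 11.68, a mean of 11.25 ± 0.35 (SD, n = 4). At 100 d they read 12.1, 9.41, 8.83 and 12.39. The 80 d arrays lay close together, whereas 2 of the 100 d arrays were the brightest of the whole region and the other 2 were dimmer than any 80 d array. The SD at 100 d was 1.83, against a median SD of 0.18 over the 12602 genes kept in brainstem, and 0.0238% of those genes had a larger one.

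Later levels were lower and remained scattered. At 120 d the arrays read 7.57, 10, 8.53 and 9.72, and at 130 d they read 8.82, 9.16, 7.58 and 10.07. At 145 d they read 7.46, 9.6, 6.76 and 7.17, and in newborn animals 7.0, 6.78, 7.15 and 7.85. The spread was wide at each fetal age from 100 d and narrow again after birth, with an SD of 1.12 at 120 d, 1.03 at 130 d, 1.27 at 145 d and 0.46 in newborns. Of the brainstem arrays above 10, 6 were from 80 and 100 d and 1 was later.

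From 80 d to the newborn the PRL mean in brainstem fell from 11.25 to 7.19, a log2 difference of -4.06 or 16.7-fold. All 4 newborn arrays lay below all 4 arrays of 80 d, as did 16.7% of the 12508 genes compared. By 145 d the difference from 80 d was -3.51, an 11.4-fold step without overlap, where 25.7% of genes were below in the same way, and -4.12 without 145 d replicate 2. Arrays of neighbouring ages overlapped at every step. Within each of the 3 brainstem slides the newborn minus 80 d difference was -3.97, -4.62 and -4.18.

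The other regions were near the floor. Group means of PRL were 6.58 to 6.77 in cortex and 6.63 to 7.03 in hippocampus, with no array above 7.12 in the former or 7.54 in the latter. At 80 d the brainstem mean stood 22.8-fold above cortex, 23.3-fold above hippocampus and 17.3-fold above hypothalamus, with no overlap of arrays, and 17.2, 9.37 and 8.69% of genes were above in the same way. At 100 d the ratios were 15.5, 12.6 and 12.3, also without overlap, beside 14.8, 6.68 and 8.37% of genes. At 120 d brainstem arrays still lay above all of cortex (17.8% of genes) and of hippocampus (5.64%), as they did at 130 d (20.5 and 7.39%), but at both ages they overlapped with hypothalamus. At 145 d they overlapped with all 3. In newborns brainstem was 1.54-fold above cortex without overlap (13.5% of genes), and it overlapped with hippocampus and hypothalamus. PRL was well above background by any probe on 3 of the 4 cortex arrays at 80 d, on 2 at 100 d and on 3 in newborns, so folds over cortex were set by values near the floor and may understate the difference.

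In hypothalamus, the region next to the pituitary, PRL was low on most arrays and high on a few. At 80 d the arrays read 7.12, 7.77, 7.05 and 6.62, and at 100 d 7.44, 7.22, 6.7 and 6.91. At 120 d they read 6.69, 6.98, 6.92 and 8.33, and at 130 d 6.81, 9.62, 7.36 and 7.59. The brightest, replicate 2 at 130 d, was alone above 9, and the next was replicate 4 at 120 d. At 145 d all 4 lay between 6.84 and 7.01, and in newborns they read 6.62, 7.33, 6.66 and 6.69. The 130 d mean was 7.84 ± 1.23 and dropped to 7.25 without replicate 2. On that array the PRL probes read 10.37 and 8.87, the lower value being from the 1-spot probe in the outermost row of the array. Spots around it there were 0.64 below their level on the other arrays of the group. Their deviation was -0.61 on 145 d replicate 1, where the PRL probes read 7.26 and 6.41. It was -0.56 on 120 d replicate 1 and 0.55 on 100 d replicate 2.

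Other pituitary genes were read on the same arrays. The methods describe cutting the pituitary stalk to free the brain, then taking the hypothalamus from its underside, the hippocampi, the brainstem and the frontal cortex. Of 7 pituitary hormone genes listed, 6 had a named probe: growth hormone (GH), made by somatotrophs, the common glycoprotein hormone subunit CGA, the thyrotropin and gonadotropin subunits TSHB, FSHB and LHB, and POMC, the precursor of corticotropin. Of 10 pituitary transcription factors and releasing hormone receptors, 5 had one, among them POU1F1, needed for lactotrophs, somatotrophs and thyrotrophs.

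In brainstem, GH, CGA, TSHB and FSHB were at or near background on the arrays where PRL was bright. On the 8 arrays of 80 and 100 d, GH lay between 6.33 and 6.42 and FSHB between 6.34 and 6.45, well above background on none. CGA lay between 6.34 and 6.58, TSHB between 6.22 and 7.02 and POU1F1 between 6.26 and 6.56, each well above background on 1 of the 8. In the cortex at those ages CGA lay between 6.25 and 6.6, TSHB between 6.25 and 6.49 and POU1F1 between 6.39 and 6.49, well above background on none. Over all 24 brainstem arrays GH was well above background on none, POU1F1 on 1, FSHB on 1, TSHB on 2 and CGA on 4. LHB and POMC were well above background on all 24, but they were on cortex arrays too. At 80 and 100 d LHB lay between 9.87 and 10.32 in brainstem and between 9.43 and 10.27 in cortex. POMC lay between 8.94 and 10.01 in brainstem and between 9.08 and 9.83 in cortex. At those ages the ranges of brainstem and cortex thus overlapped for both genes.

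TRHR, the receptor for thyrotropin-releasing hormone, lay between 6.93 and 7.53 on the brainstem arrays of 80 and 100 d and was well above background on all 8. Across the 24 brainstem arrays, which share the change with age, the Pearson's r with PRL was 0.594 for TRHR, 0.326 for TSHB, 0.0672 for CGA, -0.167 for POU1F1, -0.255 for FSHB and -0.389 for GH. The GH probe was bright on no array of the series, reaching 7.05 at most, so these data do not show that it could detect the hormone. Dopamine receptor DRD2 and tyrosine hydroxylase, which frame the dopamine control of PRL, had no named probe.

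In hypothalamus CGA was bright on arrays with high and with low PRL. CGA was well above background on 24 of 24 hypothalamic arrays and ran from 6.98 to 13.94, TSHB on 13 arrays and up to 11.45, and FSHB on 10 and up to 9.17. The newborn arrays read 10.45, 13.94, 12.36 and 9.14 for CGA, and 6.9, 11.45, 11.21 and 8.25 for TSHB. Newborn replicates 2 and 3, the brightest for TSHB in the region, had PRL at only 7.33 and 6.66. At 130 d replicate 2, where PRL was 9.62, CGA was 12.41 and FSHB was 9.17, but GH was 6.6. At 120 d replicate 4, where PRL was 8.33, CGA was 10.46 and GH was 7.05, its brightest value. The next array by PRL was 80 d replicate 2 (7.77), with CGA at 12.01, TSHB at 7.7 and FSHB at 6.94. The 3 arrays with the highest PRL thus all had CGA above 10, and so did newborn arrays with PRL near its lowest.

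Across the 24 hypothalamic arrays, which share a region and mostly slides, PRL went with FSHB at Pearson's r of 0.75 and Spearman's rho of 0.598. Replicate 4 at 120 d was the only hypothalamic array on its slide and scan date, so its levels cannot be told apart from a slide effect. The r was 0.601 for GH, 0.342 for CGA (rho 0.104), 0.128 for POU1F1 and -0.0145 for TSHB. GH and POU1F1 were each well above background on only 2 of the 24 arrays, so their coefficients rest mostly on values near the floor. Leaving out the 2 arrays farthest from the median of PRL, 130 d replicate 2 and 120 d replicate 4, took r to 0.418 for FSHB (rho 0.495), 0.398 for GH and 0.0767 for CGA (n = 22), so that with CGA rested on those arrays. Over all 24 arrays, with each age's mean removed, r was 0.779 for FSHB, 0.646 for GH and 0.514 for CGA. Whether pituitary tissue contributed to PRL on them was not tested.

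**Figure D3:**
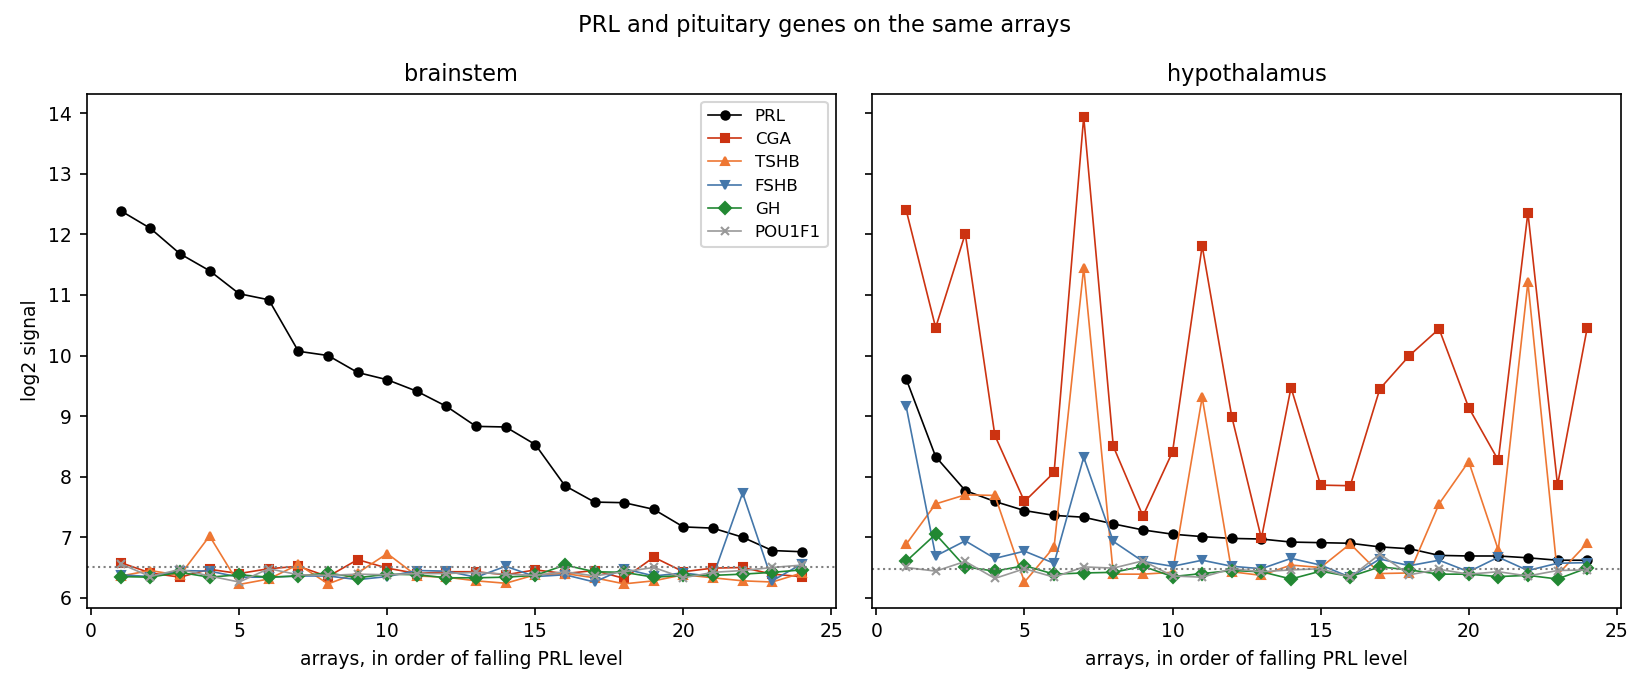
Log2 signal of PRL and of the pituitary genes CGA, TSHB, FSHB, GH and POU1F1 on the 24 brainstem and the 24 hypothalamic arrays, set in order of falling PRL, with the region's median floor of probes well above background as a dotted line. In brainstem PRL runs from 12.39 down to 6.76 while most points of the other genes lie near the floor, and in hypothalamus CGA is high on the 3 arrays with the highest PRL and, like TSHB, on several with low PRL.

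Other members of the prolactin and growth hormone family did not share the brainstem signal. PRP1 did not pass 6.9 by the probe with the shared run or 6.48 by its other probe, and the placental lactogen CSH1 did not pass 6.69. The prolactin receptor PRLR lay between 6.37 and 6.53 in brainstem. Of the prolactin control and signalling genes, 3 of 14 had a probe.

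Genes that went with PRL were sought among those with a symbol. Over all 95 arrays the closest were TFAP2A, a transcription factor of neural crest and hindbrain neurons, at Pearson's r of 0.831, and HOXA5, HOXC6, HOXA7 and HOXA4, at 0.811, 0.771, 0.769 and 0.769. HOX genes pattern the hindbrain and spinal cord, and HOXA5 lay between 8.61 and 11.43 in brainstem and never above 6.69 elsewhere. Such coefficients partly restate that all 5 are brighter in brainstem. Within the 24 brainstem arrays TFAP2A was at 0.823 and HOXA5 at 0.74, and after removing each age's mean they were at 0.559 and 0.138. The genes closest to PRL within brainstem, looked up after these values were seen, were SST (0.854), the cyclin CCNA2 (0.833), RPN2 (0.832), TFAP2A and ASPM (0.822), a gene of dividing neural progenitors. With each age's mean removed SST was at 0.519, CCNA2 at 0.317, RPN2 at 0.424 and ASPM at 0.25.

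**Figure D4:**
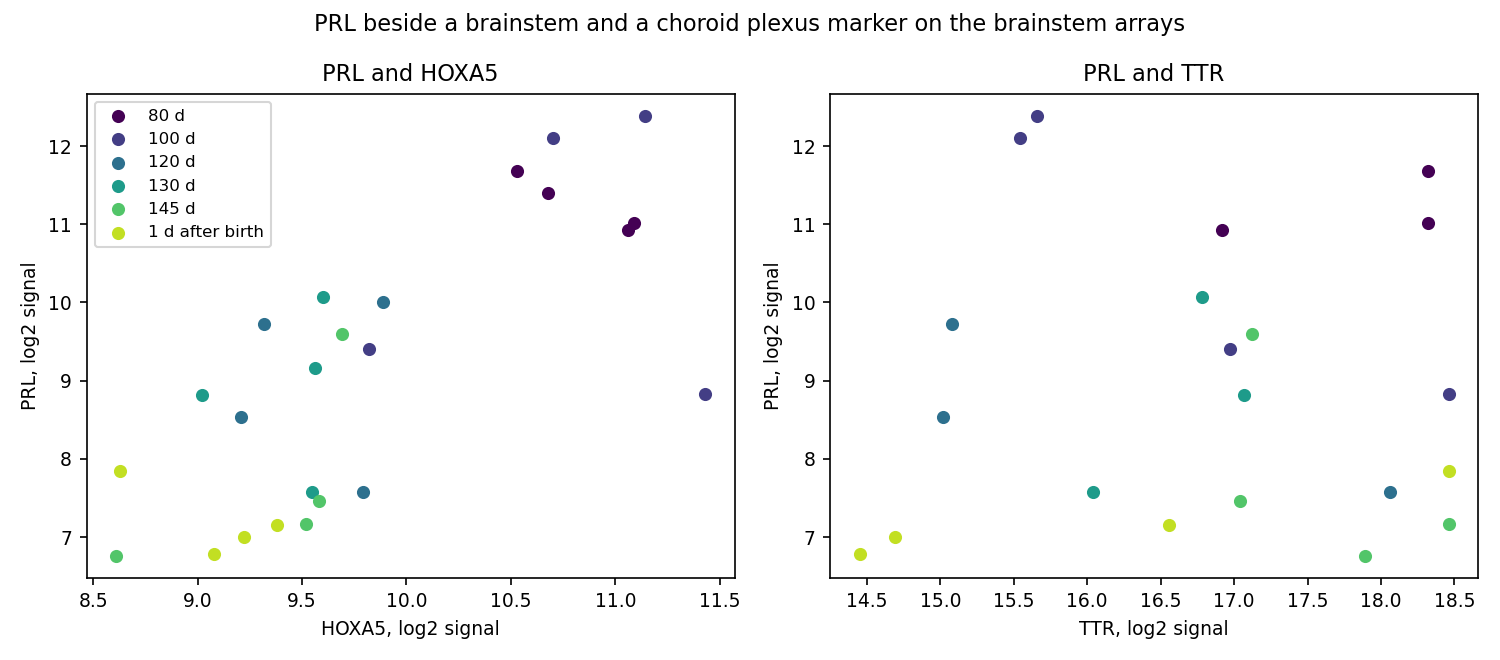
Log2 signal of PRL (vertical axis) against HOXA5 and against the transthyretin gene TTR (horizontal axes) on brainstem arrays, 1 point per array, coloured by age. PRL and HOXA5 are both high at 80 d, 1 array of 100 d has the highest HOXA5 with PRL at 8.83, and no trend of PRL with TTR is seen.

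Within the brainstem some other genes moved with age in the same direction as PRL, and 20.8% of all genes were lower at 145 d than at 80 d. HOXA5 fell by 1.49 ± 0.29 (SE) from 80 to 145 d (limma adjusted p = 0.00036), and NEUROD1, a factor of granule neurons, fell by 4.8 ± 0.48 (limma adjusted p = 1.53e-07). The other brainstem markers with a probe did not pass. SLC6A4 differed by -0.13 ± 0.15 (limma adjusted p = 0.546) and SLC6A2 by 0.11 ± 0.08 (limma adjusted p = 0.323). NEUROD1 had a mean of 12.72 at 80 d and of 7.92 at 145 d. TTR, the transthyretin of choroid plexus, was between 14.45 and 18.46 on the 21 brainstem arrays where it had a value, and had an r with PRL of 0.011. The globin HBB had one of -0.255 and the blood marker AHSP one of 0.365. From 80 to 145 d AHSP differed by -1.13. HBB differed by 1.37 as the mean of its probes but by -1.33 with its brightest probe. The part of these other tissues in the PRL signal was not tested.

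NPVF was brightest in the hippocampus of the younger fetuses and was present in the hypothalamus at all ages. Hippocampal arrays read 9.78, 9.26, 10.58 and 10.31 at 80 d, and 11.85, 10.74 and 10.78 at 100 d. At 120 d they read 9.65, 11.07, 10.6 and 10.43, and at 130 d 9.41, 9.8, 9.83 and 8.79. Each of these was above the 145 d arrays, which read 7.41, 7.35, 8.19 and 7.92, and above the newborn arrays, which read 7.13, 7.1, 6.94 and 7.63. The share of genes apart in the same way was counted only for 80 d against both ages and for 130 d against 145 d.

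The hippocampal mean rose from 9.98 ± 0.58 at 80 d to 11.13 ± 0.63 (n = 3) at 100 d, by 1.14 or 2.21-fold, without overlap (3.62% of genes). It was 10.44 ± 0.59 at 120 d, 9.46 ± 0.48 at 130 d, 7.72 ± 0.40 at 145 d and 7.20 ± 0.30 in newborns. The step from 130 to 145 d was -1.74, a 3.34-fold step down without overlap, as for 0.765% of 12812 genes. From 80 d to newborn the difference was -2.78, or 6.87-fold, with no overlap, as for 9.99% of 12789 genes, and it was -2.39 and -3.48 in the slides that held both ages. At 145 d minus 80 d it was -2.26, or 4.8-fold, with no overlap, as for 8.76% of genes.

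In hypothalamus, where NPVF neurons are known to lie, the arrays read 8.34, 8.91, 8.89 and 8.78 at 80 d and 8.88, 9.15, 9.64 and 9.22 at 100 d. At 120 d all 4 lay between 9.47 and 9.56, the tightest group of the gene in this region, with a mean of 9.51 ± 0.05. At 130 d they read 8.98, 8.79, 9.08 and 10.49, at 145 d 9.34, 9.21, 9.47 and 9.33, and in newborns 8.47, 7.76, 9.54 and 9.24. Levels were a little higher at 145 d than at 80 d, by 0.61, with no overlap, as for 7.52% of 12726 genes. Newborns, at 8.75 ± 0.80, overlapped with every earlier age.

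Hippocampus and hypothalamus exchanged order with age. NPVF was higher in hippocampus by 2.38-fold at 80 d, 3.74-fold at 100 d and 1.9-fold at 120 d, with no overlap at any of these ages (6.34, 7.15 and 4.12% of genes). At 130 d the arrays overlapped. Hippocampus was lower by 3.07-fold at 145 d and by 2.93-fold in newborns, again with no overlap (4.82 and 3.55% of genes).

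Brainstem means of NPVF were 7.54, 7.85, 7.02, 6.84, 6.81 and 6.74 from 80 d to newborn, and cortex means 6.99, 7.14, 6.53, 6.48, 6.54 and 6.52. From 80 to 145 d the difference in brainstem was -0.73, without overlap, as for 25.7% of genes. In cortex the 145 d arrays lay below those of 80 d, as for 19.3% of genes, but with none of them well above background the size of that difference was not measured. At 120 d, 145 d and in newborns no cortex array stood well above background, so ratios over cortex are lower bounds. Hippocampus was at least 14.8-fold above cortex at 120 d, at least 2.25-fold at 145 d and at least 1.61-fold in newborns. For hypothalamus the bounds were at least 7.81, 6.92 and 4.71-fold. In brainstem NPVF ran with PRL over the 24 arrays at Pearson's r of 0.77, and at 0.56 after removing each age's mean.

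GRP was present in all regions and had its highest group means in hypothalamus and hippocampus at 80 d, 9.53 in each. Hypothalamic arrays read 9.28, 9.7, 9.93 and 9.23 at 80 d and 8.69, 9.39, 9.65 and 9.72 at 100 d. They read 8.63, 8.54, 7.95 and 9.21 at 120 d and 8.08, 8.2, 8.28 and 8.61 at 130 d. At 145 d the values were 9.26, 8.37, 7.97 and 8.14, and in newborns 7.8, 7.38, 7.78 and 7.71. The newborn arrays were close together.

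The hypothalamic mean of GRP fell from 9.53 ± 0.33 to 7.67 ± 0.19, a difference of -1.87 or 3.65-fold, with no overlap, as for 11.8% of 12699 genes. Within slides it was -1.69, -1.85 and -2.18. Newborn minus 145 d was -0.77, without overlap (4.87% of genes).

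In hippocampus GRP read 9.82, 9.18, 9.56 and 9.55 at 80 d, 7.81, 7.85, 8.77 and 7.82 at 145 d, and 7.85, 8.68, 8.21 and 8.1 in newborns. The 80 d arrays were above those of the other 2 ages, as for 8.76% of genes at 145 d and 9.99% in newborns. The difference from 80 d was -1.47 at 145 d, or 2.76-fold, and -1.32 in newborns, or 2.49-fold. The 3 ages between were intermediate, at 8.95 ± 0.63 (n = 3), 9.17 ± 0.83 and 9.01 ± 0.57.

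At 80 d hippocampus was above cortex by 2.21-fold and above brainstem by 2.22-fold, and hypothalamus by 2.22 and 2.23-fold, in all cases without overlap. The share of genes above in the same way was 11.4 and 20.1% for hippocampus, and 13.4 and 18.6% for hypothalamus.

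In brainstem the GRP means were 8.38, 8.84, 8.08, 7.77, 7.81 and 7.59, and the newborn minus 80 d difference of -0.78, or 1.72-fold, came without overlap (16.7% of genes). In cortex they were 8.39, 8.66, 7.94, 8.08, 8.04 and 8.11, and 80 d overlapped with newborn. When all group means of a member were ranked, 0 of 23 neighbouring steps lacked overlap, for each of the 3 genes, so the order of levels is known only over wider distances.

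**Figure D5:**
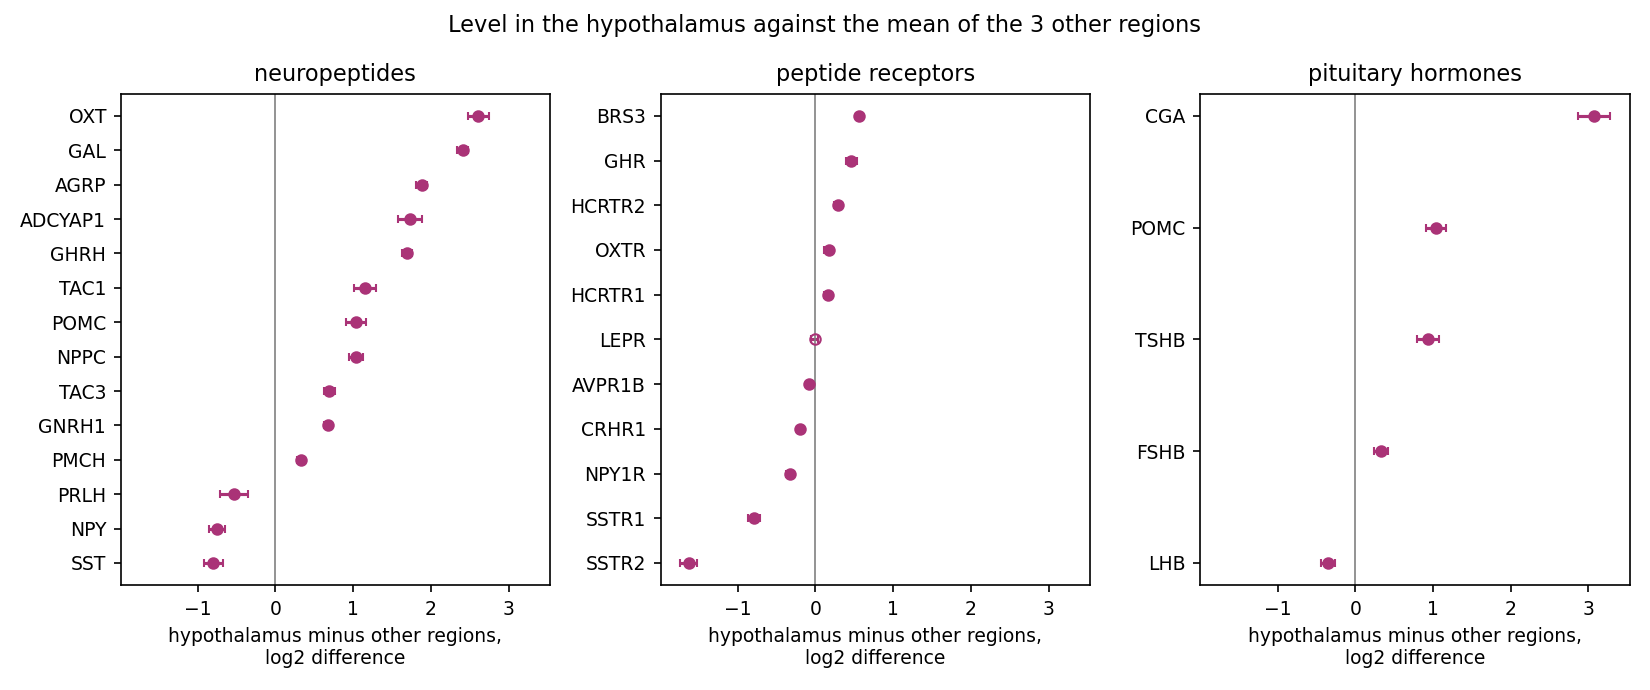
Log2 difference of hypothalamus minus the mean of the other 3 regions, with its SE as bars, for neuropeptides, peptide receptors and pituitary hormones, where filled points passed a limma adjusted p of 0.05 and open points did not. OXT (2.61) and GAL (2.41) lie highest among the neuropeptides, and SST, NPY and PRLH lie below 0.

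The surrounding peptide system was tested with limma on genes that were not members. Of 41 other neuropeptides, 14 had a named probe. In hypothalamus 11 of the 14 were higher than the mean of the other regions and 3 were lower, at a limma adjusted p below 0.05, where 24.1% of 13436 genes were higher and 19.8% lower, and the median difference was 1.04 against 0.01 over all genes. This fit took arrays of the same animals as separate. Oxytocin (OXT), the peptide of milk let-down, was higher by 2.61 ± 0.14 (SE, limma adjusted p = 2.33e-26) and galanin (GAL), an inhibitor of many hypothalamic neurons, by 2.41 ± 0.07 (limma adjusted p = 2.85e-44).

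AGRP, a feeding peptide, was higher by 1.88, ADCYAP1, the PACAP precursor, by 1.73, and GHRH, the growth hormone releasing hormone, by 1.69. TAC1, the precursor of substance P, was higher by 1.15, POMC and the natriuretic peptide NPPC each by 1.04, TAC3 by 0.69, GNRH1 by 0.67 and PMCH by 0.33. These differences are from the mean of the other regions, not from each region. NPPC averaged 10.48 in brainstem against 9.73 in hypothalamus, and TAC1 averaged 11.84 in both. SST, NPY and PRLH were lower, by -0.8, -0.75 and -0.53. With slide as a random block PRLH had an adjusted p of 0.171, and 11 were higher and 2 lower. Over all 13436 genes the block took the calls from 5904 to 1915. The shares given above therefore do not apply to counts with the block.

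Of 7 hypothalamic markers, some of them among those peptides, all 7 were higher, and 6 with slide as a random block. Of the 5 pituitary hormones tested, CGA was higher by 3.07 ± 0.21 (limma adjusted p = 1.42e-20), TSHB by 0.94, POMC by 1.04 and FSHB by 0.33, and LHB was lower (-0.35). With the block FSHB and LHB no longer passed, at adjusted p of 0.0944 and 0.0706. Among peptide receptors, 5 of 11 were higher and 5 lower, and 3 and 4 with the block. BRS3, an orphan receptor of the bombesin family to which the GRP receptor belongs, was higher by 0.56 ± 0.04 (limma adjusted p = 9.33e-18), and SSTR2, a somatostatin receptor, was lower by -1.63. The GRP receptor and the NPVF receptor had no named probe.

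The number of other neuropeptides that changed with age was close to what the share of all genes gives in each region. Counted by limma's F test over the 5 later ages against 80 d, 6 of 13 neuropeptides changed in cortex, 6 of 13 in brainstem, 0 of 13 in hippocampus and 2 of 14 in hypothalamus, where 46.5, 41.1, 3.08 and 15.7% of all genes did. At an unadjusted p below 0.05 the hippocampal count was 5, but the share of all genes at that threshold was not counted. The 3.08% does not apply to it, so no excess can be read from it. Those that passed were ADCYAP1, GAL, NPY, PMCH, SST and TAC3 in cortex, ADCYAP1, GAL, NPY, PMCH, SST and TAC1 in brainstem, and ADCYAP1 and PMCH in hypothalamus. By the contrast of 145 d with 80 d, in brainstem SST (-1.9), TAC1 (-1.41), NPY (-1.09), GAL (-1.06) and PMCH (-0.77) were lower at 145 d than at 80 d. OXT was higher there by the contrast, by 0.64 (limma adjusted p = 0.00345), but did not pass the F test (limma adjusted p = 0.0516). Over all genes in brainstem 17.3% were higher and 20.8% lower. In cortex ADCYAP1 (2.89), SST (1.48), NPY (0.72) and TAC3 (0.44) were higher and PMCH (-0.54) lower, where 19% of all genes were higher and 23% lower. In hypothalamus ADCYAP1 rose by 1.97 ± 0.30 (limma adjusted p = 0.000138), and PMCH fell by 0.75. POMC was lower by the contrast (-0.89, limma adjusted p = 0.0368) but did not pass the F test (limma adjusted p = 0.0913). In hypothalamus 5.56% of all genes were higher and 8.25% lower.

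Among the receptors, HCRTR1, an orexin receptor, fell by 1.1 in brainstem and by 0.85 in hypothalamus from 80 to 145 d. OXTR, the oxytocin receptor, fell by 0.58 in hypothalamus. ESR1, the estrogen receptor, which acts on the PRL gene in lactotrophs, was 2.17 higher in hypothalamus at 145 d than at 80 d (limma adjusted p = 0.00524). Its F test (limma adjusted p = 0.0301) no longer passed with a normexp offset of 16 or with the scanner software's processed signal. Of 32 alternatives run, 25 left the ESR1 result the same and 7 made it weaker.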

How the data were processed

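RNA of 95 samples was labelled with Cy3 and hybridized to sheep arrays of 60-base probes by the authors, 1 sample per array. The deposited scanner files give linear spot intensity and marks for signal well above background, saturation and outliers, made with Feature Extraction 10.1.1.1. The series table holds the authors' log2 values, quantile normalized, for 11138 probes. Its 95 columns were each closest to their own array, with slopes of 0.957 to 0.989 and medians of 9.04 to 9.1.

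Here, spots were corrected with normexp (offset 50) and quantile normalized in limma 3.58.1 (R 4.3.3), and control spots and outlier marks were left out. Probes of a gene were averaged. Genes were kept if at least 1.1-fold over the 95th percentile of negative controls on at least 4 arrays. Age was tested within each region, and hypothalamus against the mean of the other regions, with lmFit and eBayes and Benjamini-Hochberg adjustment over all genes kept, at 0.05. The fits were tested on simulated data. Replicates were arrays of one region and age, so p-values measure only the spread between these samples. The number of arrays limits the precision.

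Names came from the files or, by accession, symbol, gene identifier or synonym, from RefSeq ARS-UI_Ramb_v3.0 names, and 1561 of 15008 probes had one. No genome build was given, so no coordinates are printed. Named were the members, the genes of the lists, and the 5 genes with the highest Pearson's r with each member over hypothalamus and over all arrays. A gene of the lists is not reported here. The members and lists were chosen with earlier results of these data known. Alternatives were a normexp offset of 16, the scanner software's processed signal less its 75th percentile, the authors' table, quantile normalization within regions, no dim-probe filter, the brightest probe, replicate and slide blocks, and each array left out.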

Additional observations from a re-analysis of the deposited data

Results flagged for a closer look

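Of 69 groups of 4 arrays over the 3 genes, 6 held an array far from the others by the gap to the nearest array over the group's range, at Dixon's 95% critical value for 4 samples. Chance alone gives about 1 in 20 such groups. The rule was not run on other genes, so no excess can be read from the count. PRL in newborn hypothalamus read 7.33 on replicate 2 against 6.62 to 6.69 on the others. NPVF in cortex read 7.93 on 80 d replicate 2 against 6.62 to 6.78, and 6.4 on 120 d replicate 2 against 6.57 to 6.58. No cortex array of 120 d was well above background for NPVF. NPVF in hypothalamus read 10.49 on 130 d replicate 4 against 8.79 to 9.08. GRP read 8.9 in brainstem on 80 d replicate 2 against 8.18 to 8.24, and 8.77 in hippocampus on 145 d replicate 3 against 7.81 to 7.85.

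NPVF moved up in hypothalamus (0.61) and down in the other regions from 80 to 145 d, with all arrays of each group on their own side. The log2 differences were -0.45 in cortex, -0.73 in brainstem and -2.26 in hippocampus, so hypothalamus differed from them by 1.05, 1.33 and 2.87. Of all genes, 7.52% lay higher without overlap in hypothalamus, and 19.3, 25.7 and 8.76% lay lower in cortex, brainstem and hippocampus. The share of genes that moved in opposite directions in this way was not counted. In cortex no array of 145 d was well above background, and the difference was -0.13 without 80 d replicate 2 and -2.24 with the processed signal, so the 1.05 has no exact size. These differences between regions were not tested.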

How the results depend on the processing

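The newborn minus 80 d difference of PRL in brainstem, NPVF in hippocampus and GRP in hypothalamus was below 0 under every alternative run. For PRL in brainstem (-4.06) it was -4.53 with a normexp offset of 16 and -5.56 with the processed signal, and leaving out 1 array gave -4.28 to -3.92. For NPVF in hippocampus (-2.78) it was -4.14 with the processed signal and -3.02 to -2.58 with 1 array left out, and for GRP in hypothalamus (-1.87) -2.57 and -1.97 to -1.74. The 145 d minus 80 d difference with the processed signal was -4.66 for PRL in brainstem, and for NPVF -3.13 in hippocampus and -1.92 in brainstem. In the age fits 18 of 39 list genes changed in brainstem (14 to 20 with 1 array left out) and 15 of 38 in cortex (14 to 18). In hypothalamus 8 of 45 changed (7 to 12), and in hippocampus 1 of 41 (2 with the processed signal). Of all genes, 41.1, 46.5, 15.7 and 3.08% changed in these regions, in that order. Of 47 list genes, the hypothalamus held 26 higher (25 to 27) and 14 lower (13 to 14). Of all genes, 24.1% were higher there and 19.8% lower. With slide as a random block 9 were lower. The r of PRL and CGA in hypothalamus was 0.342, 0.204 with the processed signal and 0.0767 without the 2 arrays farthest from the PRL median, and that of PRL and FSHB went from 0.75 to 0.418 there. With the brightest probe HBB turned to -1.72 in cortex (newborn minus 80 d), -1.33 in brainstem and -1.78 in hypothalamus (145 d minus 80 d), and LEPR in cortex turned to 0.17 with the processed signal and lay between -0.05 and 0 with 1 array left out, the 0 being without 80 d replicate 2. The causes were not tested.

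The samples were not treated as paired: regions share animals, but the labels do not tie a number to an animal. Same-numbered arrays of one age correlated between regions at a mean of 0.0748 (-0.375 to 0.59), against -0.0249 for other numbers, and by pair of regions the means were -0.00279 to 0.118, against -0.0417 to 0.000595. The pairing by number therefore remains unsettled. With the replicate block 16 list genes changed with age in brainstem, 19 in cortex, 8 in hypothalamus and 1 in hippocampus, and 27 were higher and 14 lower in hypothalamus. Signals near the floor have little room to fall, so dim levels of PRL and NPVF limit differences between low groups.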

Other observations

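Over the 24 hypothalamic arrays, which share a region and mostly slides, the genes with the closest levels to each member were listed as a description. For PRL they were FSHB (Pearson's r 0.75), OMYHC2X (0.561), HBB (0.471), MT4 (0.469) and TPSB2 (0.454). For NPVF they were SLC2A3 (0.656), TAC1 (0.636), GHRH (0.601), GRINA (0.584) and SC5 (0.577). For GRP they were TRA2A (0.823), FST (0.817), NTN4 (0.816), CPT1B (0.797) and DNMT1 (0.786), so the 5 closest genes lay higher for GRP than for the other two members. Over all 95 arrays the closest to NPVF were HSD11B1 (0.708), BRS3 (0.683), CPT1B (0.682), ANG-1 (0.674) and TRHR (0.668), and to GRP they were PMCH (0.631), TRA2A (0.619), CCNA2 (0.607), HSD11B1 (0.589) and NRF-2 (0.587).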
